A study of Mus musculus with 6 samples.

Results

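The genes described here are 10 transcription factors and transcription cofactors of the mast cell and basophil lineage, Gata1, Gata2, Mitf, Spi1, Tal1, Runx1, Cebpa, Cebpb, Lmo2 and Zfpm1. They were chosen by name from 35297 mouse genes listed in the transcript tables of cultured mast cells, at a time when differences between the strains were already known from the same libraries, so their strain differences are given as a description, without p-values. All 10 were among the 12461 genes with enough reads to be compared. Cebpa passed that filter through the C57BL/6 libraries alone.

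These factors act together to set and hold the identity of mast cells and basophils. Gata2 and Gata1 bind GATA motifs, and Gata1 works with the cofactor Zfpm1 (FOG-1), while Tal1 is joined to Gata factors by the LIM-only adaptor Lmo2. Mitf is a basic helix-loop-helix leucine zipper factor needed for mast cell development and for many of the proteases and mediators they store, Spi1 encodes the ETS factor PU.1, and Runx1 is a core regulator of blood stem cells. Cebpa encodes C/EBPα, which directs progenitors towards granulocytes and basophils and is repressed by Mitf as cells become mast cells, and Cebpb encodes its relative C/EBPβ.

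BMMCs, mast cells grown in vitro from bone marrow, were derived from naive wild-type mice of the strains BALB/c and C57BL/6. The methods give an age for mice treated in vivo, and none for the donors of these cultures. Cells of both strains grew with the cytokines IL-3 and IL-9, stem cell factor and TGF-β1 and received no further treatment, and their RNA was sequenced on day 20. Libraries S9, S10 and S11 came from BALB/c, and libraries S12, S13 and S14 from C57BL/6. The study calls them biological replicates without saying which mice each came from, so p-values given for other genes measure the spread between these libraries only.

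Each library had between 28273312 and 37100759 reads on genes. Levels of a gene in different libraries are given as CPM (reads of a gene scaled to a common library size), and levels of different genes as TPM (which also takes the length of the transcripts into account). Fold changes are those of C57BL/6 over BALB/c on the log2 scale with their standard error (SE). Defining markers of mast cells were abundant in both strains. The receptor tyrosine kinase gene Kit was at 1766 ± 125 CPM in BALB/c, against 1947 ± 26.3 CPM in C57BL/6 (SD, n = 3), and the IgE receptor gene Fcer1a at 3308 ± 109 and 3625 ± 88.9 CPM. Of 10 mast cell markers 8 were compared, with Tpsb2 and Hdc higher in C57BL/6 and the chymase gene Mcpt4 lower (log2 fold change -1.16, adjusted p = 0.000347 in edgeR). The connective tissue mast cell receptor genes Mrgprb1 and Mrgprb2 had at most 1 read in a library. No marker of neutrophils had more than 4 reads in a library and none of eosinophils more than 15. Of 7 T or NK cell markers Ncr1 alone was compared, with a log2 fold change of -0.14, Trac was not matched, and the other 5 had at most 2 reads in a library. In RNA of whole cultures, fewer cells of a type and less RNA per cell cannot be told apart.

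The factors differed widely in level, and their order was much alike in both strains. By mean TPM over the 6 libraries of both strains, Gata2 stood first, above 98.7% of all genes compared. It was followed by Tal1 (94.0%), Gata1 (92.1%) and Spi1 (90.9%). Cebpb (80.9%), Runx1 (77.2%), Mitf (64.8%) and Lmo2 (61.0%) were intermediate, and Zfpm1 (40.3%) and Cebpa (24.2%) were low. For Cebpa this mean joins 0.0599 TPM in BALB/c and 4.94 TPM in C57BL/6, so its percentage describes neither strain. In BALB/c the order was Gata2, Tal1, Gata1, Spi1, Cebpb, Runx1, Mitf, Lmo2, Zfpm1 and Cebpa. The neighbours Tal1 and Gata1 overlapped in it, as did Cebpb and Runx1. In C57BL/6 Spi1 stood above Gata1, the other neighbours kept their places, and the lowest pair, Zfpm1 and Cebpa, overlapped. Neighbours not named as overlapping had separate ranges over the 3 libraries of the strain.

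**Figure D1:**
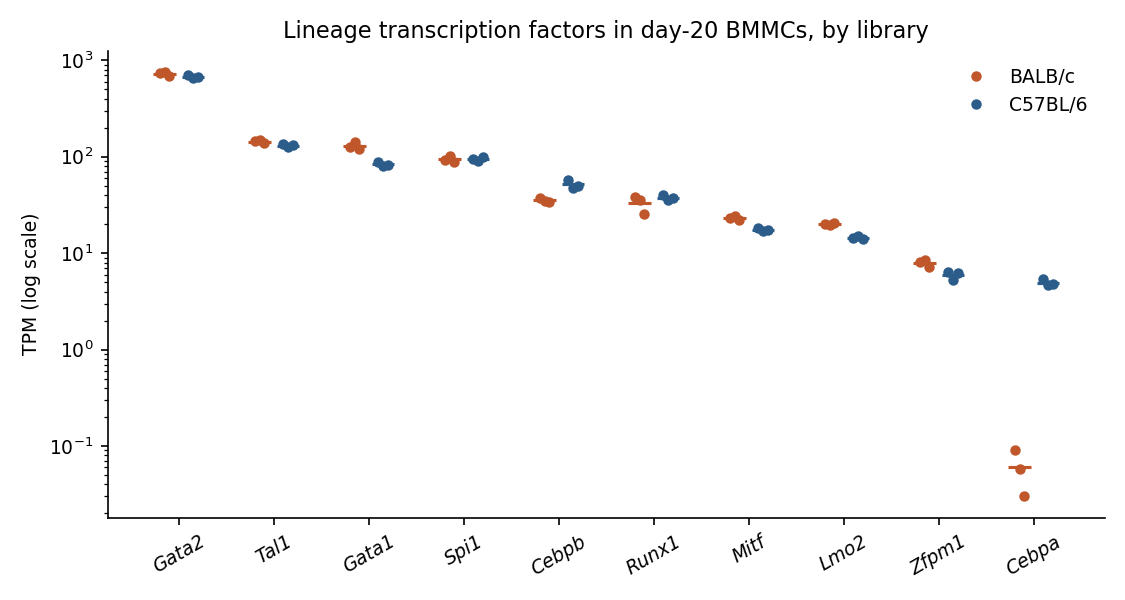
Level of each factor in each library in TPM (log axis), with 1 point per BALB/c or C57BL/6 library and lines at the mean of each strain. Gata2 lies highest in both strains, between 659 and 757 TPM, and Cebpa is the factor whose strains are far apart, at most 0.0917 TPM in BALB/c and at least 4.63 TPM in C57BL/6.

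Cebpa was the member that differed most. From BALB/c, libraries S9, S10 and S11 held 5, 3 and 2 Cebpa reads, and from C57BL/6, libraries S12, S13 and S14 held 330, 253 and 334. All BALB/c libraries were near 0, and every C57BL/6 library lay far above them. On the CPM scale this was 0.104 ± 0.0520 in BALB/c and 9.70 ± 0.541 in C57BL/6 (SD, n = 3). Pooled over libraries and set against their depth, 10 reads in BALB/c and 917 in C57BL/6 gave a 96.4-fold higher level in C57BL/6, with an exact 95% interval from 52.2 to 202 that covers counting error only. The fitted log2 fold change was 6.53 (SE 0.22), and with so few reads in BALB/c its size depended on which library was used, with 6.96 without S9 and 6.18 without S11. Even in C57BL/6 the level was low, at 5.36, 4.63 and 4.82 TPM. Cebpa is a gene without introns on chromosome 7 (chr7:34818718-34821353, plus strand, GRCm39).

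Cebpb was the other member of its family and also stood higher in C57BL/6. It had 35.1, 32.9 and 32.4 CPM in the BALB/c libraries, against 60.9, 52.0 and 52.7 CPM in those of C57BL/6. The strains did not overlap, and the log2 fold change was 0.72 (SE 0.07), which is 1.65-fold. Cebpb lies on chromosome 2 (chr2:167530835-167532338, plus strand, GRCm39).

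The GATA factors behaved differently from each other. Gata1, on the X chromosome (chrX:7825499-7844310, minus strand, GRCm39), had 152, 173 and 149.6 CPM in the BALB/c libraries, against 121, 114 and 113 CPM in those of C57BL/6, with every BALB/c library above every C57BL/6 library. Its log2 fold change was -0.45 (SE 0.06). Gata2, on chromosome 6 (chr6:88170559-88184018, plus strand, GRCm39), had 1544, 1611 and 1487 CPM in the BALB/c libraries, against 1643, 1634 and 1613 CPM in those of C57BL/6. The C57BL/6 libraries stood just above the others by CPM, with a log2 fold change of 0.07 (SE 0.04), but by TPM the strains overlapped, and the sign of the difference turned with the scaling. Within each library Gata2 was 5.81, 5.34 and 5.68 times as high as Gata1 by TPM in BALB/c, and 7.80, 8.21 and 8.14 times as high in C57BL/6. This ratio does not depend on the library size, and its ranges in the strains were apart. Zfpm1, the Gata1 cofactor (chr8:123008805-123065024, plus strand, GRCm39), had 17.8, 18.8 and 16.3 CPM in the BALB/c libraries, against 16.3, 14.1 and 15.6 CPM in those of C57BL/6. The strains overlapped by CPM, with a log2 fold change of -0.20 (SE 0.08), while by TPM the BALB/c libraries stood above.

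Tal1 and its adaptor Lmo2 were further apart in C57BL/6 than in BALB/c. Tal1 (chr4:114913623-114928952, plus strand, GRCm39) had 405, 422 and 404 CPM in the BALB/c libraries, against 422, 412 and 420 CPM in those of C57BL/6, which overlap. Its log2 fold change of 0.03 (SE 0.04) also turned sign with the scaling, and by TPM the BALB/c libraries stood above. Lmo2 (chr2:103788331-103812355, plus strand, GRCm39) had 20.0, 19.6 and 21.1 CPM in the BALB/c libraries, against 16.4, 17.7 and 15.7 CPM in those of C57BL/6, with the BALB/c libraries above and a log2 fold change of -0.29 (SE 0.07). The TPM ratio of Tal1 to Lmo2 was 7.08, 7.56 and 6.74 in BALB/c, against 9.22, 8.35 and 9.36 in C57BL/6, without overlap.

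Spi1 and Gata1, which repress each other's action in other blood lineages, changed places. Spi1 (chr2:90912562-90946101, plus strand, GRCm39) had 82.3, 90.6 and 80.8 CPM in the BALB/c libraries, against 93.6, 94.0 and 100.3 CPM in those of C57BL/6. Its log2 fold change was 0.18 (SE 0.05), and the strains overlapped by TPM. The TPM ratio of Gata1 to Spi1 was 1.36, 1.41 and 1.37 in BALB/c, against 0.95, 0.88 and 0.83 in C57BL/6. Gata1 thus stood above Spi1 in each BALB/c library and below it in each C57BL/6 library. The ratio of Cebpb to Spi1 was 0.406, 0.347 and 0.382 in BALB/c, against 0.618, 0.519 and 0.496 in C57BL/6, also without overlap.

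**Figure D2:**
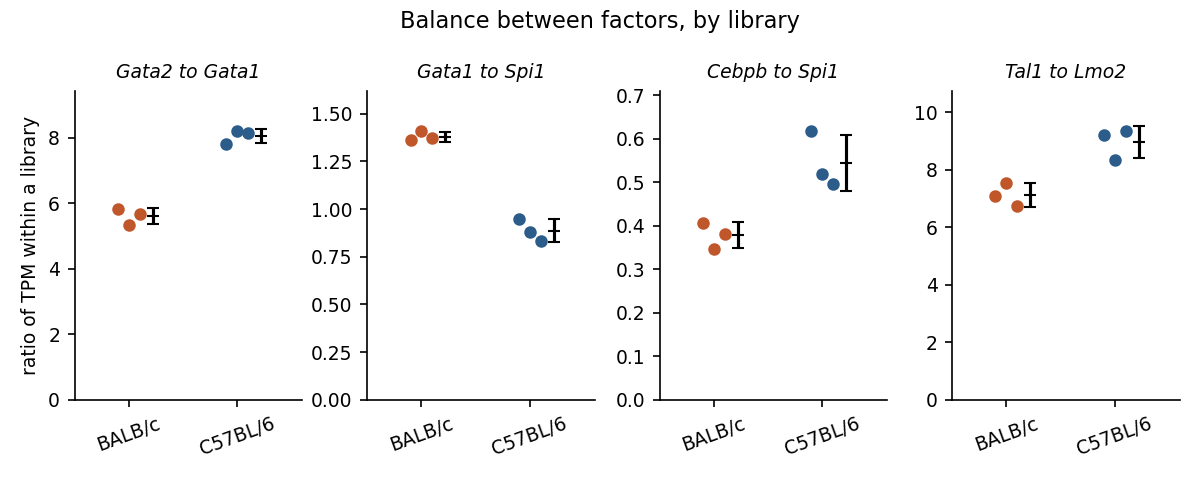
TPM ratios of pairs of factors within each library, which do not depend on library size, with 1 point per library and the mean and SD of each strain as bars. Gata1 to Spi1 lies at or above 1.36 in BALB/c and at or below 0.95 in C57BL/6, and Gata2 to Gata1 lies at or below 5.81 in BALB/c and at or above 7.80 in C57BL/6.

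Mitf and Runx1 differed by less than 2-fold, in opposite directions. Mitf (chr6:97783950-97998323, plus strand, GRCm39) had 73.5, 77.8 and 73.1 CPM in the BALB/c libraries, against 64.9, 64.1 and 62.5 CPM in those of C57BL/6. The BALB/c libraries stood above by CPM and by TPM, with a log2 fold change of -0.23 (SE 0.04). Runx1 (chr16:92398354-92623037, minus strand, GRCm39) had 176, 165 and 119 CPM in the BALB/c libraries, against 210, 198 and 199 CPM in those of C57BL/6. Library S11 was low, and without it the log2 fold change fell from 0.40 (SE 0.12) to 0.24. By TPM the strains overlapped for Runx1.

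Set beside all genes, 8 of the 10 factors had CPM values that did not overlap between the strains, 5 of them with C57BL/6 above and 3 with BALB/c above, where 61.9% of all genes compared did not overlap. By TPM, 7 did not overlap, 2 of them (Cebpa and Cebpb) with C57BL/6 above and 5 with BALB/c above. On the TPM scale all genes leaned the same way, with 18.2% having C57BL/6 above and 51.3% BALB/c above. As a count only, 7 of the 10 lay under the adjusted p threshold, where 52.9% of all genes did. With a fold above 2 required as well, 1 of the 10 (Cebpa) remained, where 13.3% of all genes did, with 7.73% higher in C57BL/6 and 5.54% lower. This split depended on the scaling, with 963 genes higher and 690 lower as given here and 838 higher and 829 lower with plain library size. Cebpa entered the comparison only through the libraries in which it was high, the members were chosen with these differences known, and nothing is read from their counts. Their median log2 fold change was 0.05, beside -0.01 over all genes compared.

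**Figure D3:**
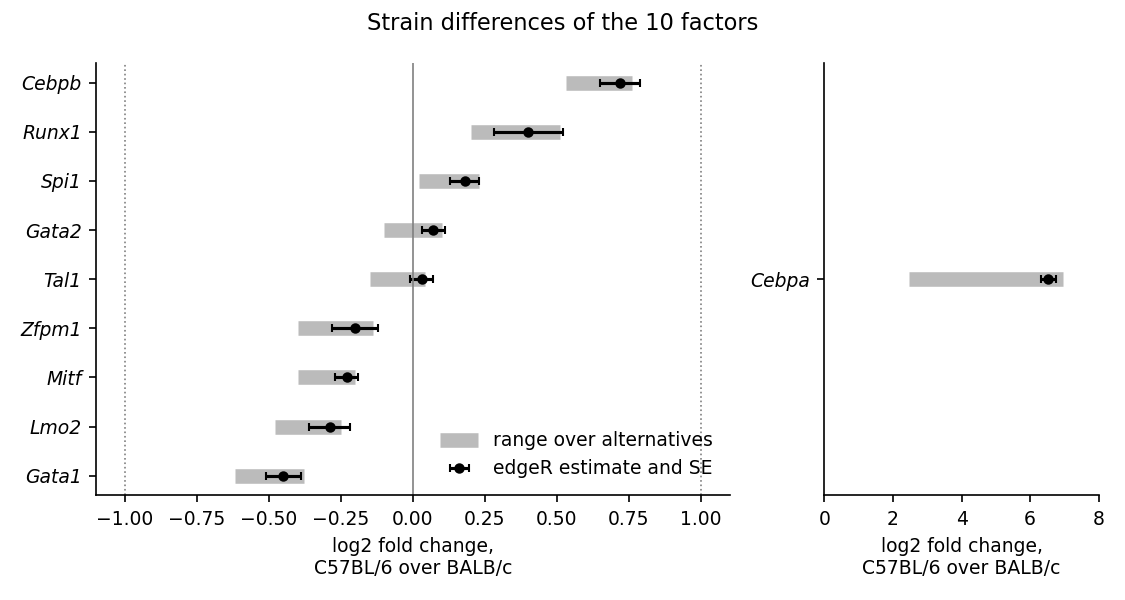
Fitted log2 fold change of each factor, C57BL/6 over BALB/c, as points with bars of 1 SE, grey bands for the range over the alternative settings, and dotted lines at a 2-fold change. Cebpa, at 6.53, has a panel of its own, the other 9 factors lie between -0.45 and 0.72, and the bands of Gata2 and Tal1 cross 0.

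The split of reads over the transcripts of a gene differed between the strains for Runx1. The tables list 4 Runx1 transcripts, of 5803, 5611, 7138 and 6946 bases, and the transcript of 5611 bases had no reads in any library. The transcript of 5803 bases took 18%, 25% and 22.3% of the Runx1 reads in BALB/c and 12.4%, 8.67% and 11.2% in C57BL/6. The transcripts of 7138 and 6946 bases together took the rest, 78.2% ± 3.52 in BALB/c and 89.2% ± 1.91 in C57BL/6 (SD, n = 3). Each BALB/c library thus had a larger share of the shorter form than each C57BL/6 library. Taken singly, the transcript of 7138 bases took a mean of 46.2% in BALB/c and 55.6% in C57BL/6, without overlap. That of 6946 bases took 32.1% and 33.6%, with overlap. The transcripts were grouped after their shares were seen, and the split is an estimate by the quantification, not a count of reads that tell them apart. For Gata2 the split was steady, with between 44.4% and 46.8% of the reads of all 6 libraries on the transcript of 3150 bases and the rest on that of 3258 bases.

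For other members the split also differed between strains for some transcripts, and moved between libraries of the same strain for several. The Tal1 transcript of 4254 bases took 33.5%, 37.9% and 19.9% of the reads in BALB/c and 18.5%, 5.61% and 17.5% in C57BL/6, so that every BALB/c share lay above every C57BL/6 share, though S11 lay close to S12. The transcript of 4237 bases took most of the rest, between 53.2% and 83.7%. The Zfpm1 transcript of 4001 bases took 26.6%, 26.6% and 26.1% of the reads in S9 to S11, against 39.1%, 35.5% and 28.8% in S12 to S14, without overlap. Cebpa reads were put on the transcript of 2651 bases in 5 libraries and on that of 2636 bases in S14 alone, a swap between forms that differ little in length. Mitf reads fell mostly on a transcript of 4682 bases, with between 65.5% and 80.3%, among 16 listed. The Mitf transcript of 4926 bases took between 13.5% and 19.4%, and that of 4753 bases took 12.8%, 12.9% and 11.3% in S10, S11 and S13 and 0% in the other libraries. Lmo2 reads were spread over transcripts of 1519, 1605, 1646 and 1958 bases, whose shares reached 51.0%, 39.9%, 21.9% and 15.7% and overlapped between the strains. Gata1 had at least 96.1% of its reads on the transcript of 1902 bases, and Cebpb has a single listed transcript, of 1518 bases. Spi1 had no reads in BALB/c on its transcript of 1256 bases, and in C57BL/6 that transcript had an estimated 55.2, 208.3 and 144.0 reads, at most 8.19% of the gene. The main Spi1 transcript, of 1473 bases, took 91.2% ± 0.252 of the reads in BALB/c and 88.9% ± 2.5 in C57BL/6 (SD, n = 3), with S9 and S12 almost equal. Of 48 listed transcripts of the 10 genes, 22 took at least 10% of their gene's reads in some library.

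**Figure D4:**
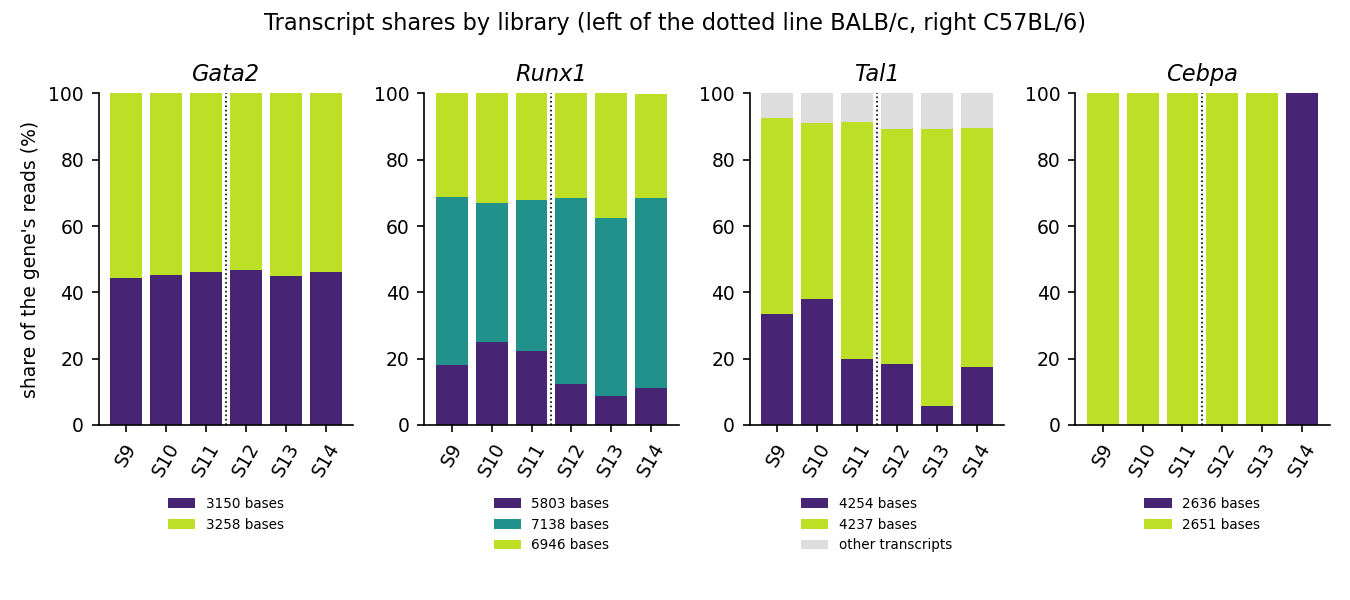
Share of the reads of Gata2, Runx1, Tal1 and Cebpa on each transcript, named by its length, in each library, with BALB/c left and C57BL/6 right of the dotted line. Gata2 is steady, the Runx1 transcript of 5803 bases has 18% or more in BALB/c and 12.4% or less in C57BL/6, and Cebpa moves to the transcript of 2636 bases in S14.

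Promoter sequences show which of the factors' own motifs lie before their starts. RefSeq promoters (GRCm38.p6) were matched for 8 members, with 13 starts in all, and the 250 bases before each start were searched on both strands. The motifs were AGATAA for GATA factors, TGTGGT for RUNX, CANGTG for E-boxes (a wider class than the forms CACGTG and CATGTG that Mitf prefers), TTGCNNAA for C/EBP and GAGGAAGT for PU.1. Shown are the starts that hold a motif other than an E-box, the Runx1 start with its E-boxes, and the start of Cebpa as the gene that differed most, written 5′ to 3′ on the strand of the gene with motif matches in capitals.
Cebpa (chr7:35119043-35119292, plus strand): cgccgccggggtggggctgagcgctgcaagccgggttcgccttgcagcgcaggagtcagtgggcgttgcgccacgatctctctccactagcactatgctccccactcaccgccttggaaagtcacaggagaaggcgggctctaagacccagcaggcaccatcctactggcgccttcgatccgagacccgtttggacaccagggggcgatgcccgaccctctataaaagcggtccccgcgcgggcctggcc
Tal1 (chr4:115056176-115056425, plus strand): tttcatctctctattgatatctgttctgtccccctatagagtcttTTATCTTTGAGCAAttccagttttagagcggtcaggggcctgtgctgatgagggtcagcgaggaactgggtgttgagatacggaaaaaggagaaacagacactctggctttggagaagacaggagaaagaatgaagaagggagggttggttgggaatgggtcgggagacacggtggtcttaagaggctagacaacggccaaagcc
Mitf (chr6:97806808-97807057, plus strand): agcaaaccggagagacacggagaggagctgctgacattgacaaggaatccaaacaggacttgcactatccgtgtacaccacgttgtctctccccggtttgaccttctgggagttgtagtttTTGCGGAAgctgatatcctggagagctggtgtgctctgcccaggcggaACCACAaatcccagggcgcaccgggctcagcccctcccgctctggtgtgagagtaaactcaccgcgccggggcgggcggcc
Runx1 (chr16:92826075-92826324, minus strand): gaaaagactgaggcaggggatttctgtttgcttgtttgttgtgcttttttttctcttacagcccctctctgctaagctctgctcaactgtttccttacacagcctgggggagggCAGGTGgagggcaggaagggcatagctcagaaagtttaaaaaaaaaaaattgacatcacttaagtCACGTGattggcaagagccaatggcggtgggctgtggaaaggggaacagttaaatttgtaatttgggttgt
The Cebpa window held none of these letters. The Tal1 window held a GATA match 205 bases and a C/EBP match 199 bases before the start. The Mitf window held a RUNX match at 81 bases and a C/EBP match at 129 bases, and the Runx1 window held E-boxes at 136 bases, of the form CAGGTG, and at 71 bases, of the form CACGTG. Of the 13 windows, 1 held the GATA motif, 1 the RUNX motif, 2 the E-box, 2 the C/EBP motif and 0 the PU.1 motif. Among 32851 promoters of the same length, 9.99% held the GATA motif, 14% the RUNX motif, 39.5% the E-box, 9.56% the C/EBP motif and 2.44% the PU.1 motif. A match is a description of letters and not a site of binding, and a window without a match says nothing about a factor.

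Among 17 partners and cofactors of the factors, 16 were compared and 3 passed the test, 1 higher in C57BL/6 and 2 lower. Of all genes compared, 13.3% passed, 7.73% higher in C57BL/6 and 5.54% lower. The median log2 fold change of the 16 was 0.01, beside -0.01 over all genes. Trib1 and Trib2 encode pseudokinases that bring C/EBPα to the ubiquitin ligase Cop1 for degradation, and they differed in opposite directions. Trib1 had 17, 7 and 15 reads in S9 to S11, against 226, 168 and 190 in S12 to S14 (log2 fold change 3.97, adjusted p = 1.36e-06 in edgeR). It entered the comparison only through the C57BL/6 libraries, so its direction was fixed by the filter and nothing is read from its p-value. Trib2 had 2361, 2410 and 2831 reads in S9 to S11, against 260, 211 and 271 in S12 to S14 (log2 fold change -3.29, adjusted p = 5.33e-10 in edgeR). Cop1 itself was at 5.55 ± 0.0339 and 5.22 ± 0.350 CPM (SD, n = 3). Lyl1, a close relative of Tal1 that takes part in the same complexes, was at 119 ± 5.17 CPM in BALB/c, against 55.9 ± 2.18 CPM in C57BL/6 (log2 fold change -1.09, adjusted p = 1.76e-07). The bridging protein gene Ldb1 and the Runx partner gene Cbfb did not pass the test, with log2 fold changes of 0.11 and 0.09.

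Of 16 relatives in the families of the factors, 9 were compared, with a median log2 fold change of -0.01. Past the test, C57BL/6 was higher for 2 and lower for 2, where 13.3% of all genes passed. Runx2, known as the Runx factor of bone, had 23, 10 and 10 reads in S9 to S11, against 111, 149 and 185 in S12 to S14 (log2 fold change 3.43, adjusted p = 2.92e-05 in edgeR). Gata3, the Gata factor of T helper cells, rose from 2.05 ± 0.235 to 4.62 ± 0.0413 CPM (adjusted p = 8.72e-05 in edgeR), a log2 fold change of 1.17 that was 0.57 in limma on log2(TPM + 1). Lmo4, a LIM-only protein gene like Lmo2, was lower in C57BL/6, at 106 ± 9.74 CPM against 52.2 ± 1.86 CPM (adjusted p = 1.99e-06 in edgeR). Its log2 fold change of -1.02 lay at the threshold, and it was -0.95 without S10 and -1.0 without S13, where the call was lost. Tfeb, a relative of Mitf, had a log2 fold change of -1.08 on 26 to 75 reads per library (adjusted p = 0.00716 in edgeR), and it lost the call without S10, at -0.84, and without S14, at -0.94. The other 7 relatives had at most 2 reads in a library, among them Cebpe, Spib and Spic.

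Of 37 other transcription factors of blood cells, 32 were compared, with a median log2 fold change of 0.11. Past the test, C57BL/6 was higher for 5 and lower for 2, where 13.3% of all genes passed. Irf8, a factor of monocytes, dendritic cells and early basophil and mast cell progenitors, had 12, 2 and 3 reads in S9 to S11, against 164, 137 and 232 in S12 to S14. Its log2 fold change of 4.99 (adjusted p = 6.57e-06 in edgeR) was 6.16 without S9. Irf8 too entered the comparison only through the C57BL/6 libraries, so its direction was fixed by the filter and nothing is read from its p-value. The early growth response genes Egr3 and Egr2, which are induced by receptor signals, rose from 41.8 ± 13.3 to 428 ± 91.7 CPM and from 71.4 ± 14.3 to 342 ± 46.3 CPM (adjusted p = 3.04e-06 and 1.74e-06 in edgeR). Id1 and Id2 encode inhibitors of the E proteins with which Tal1 pairs, and their log2 fold changes were 1.95 and 1.22 (adjusted p = 4.17e-05 and 3.94e-06). Id2 was the more abundant, at 38.6 ± 5.43 CPM in BALB/c, against 90.0 ± 3.33 CPM in C57BL/6. The erythroid factor Klf1 was lower in C57BL/6, with 42, 60 and 60 reads in BALB/c, against 19, 12 and 16 in C57BL/6 (log2 fold change -1.71, adjusted p = 0.000508 in edgeR). The seventh gene past the test was Hes1, a target of Notch, with a log2 fold change of -1.08, which is named here after its value was seen.

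Of 17 mast cell genes known as targets of Gata factors or Mitf, all 17 were compared. Past the test, C57BL/6 was higher for 3 and lower for 1, where 13.3% of all genes passed. The median log2 fold change was 0.13. Tpsb2, a tryptase, rose from 1032 ± 185 to 5166 ± 311 CPM (adjusted p = 5.16e-07 in edgeR), and Tpsab1, its neighbour and close relative, fell from 6310.1 ± 1167 to 48.5 ± 2.70 CPM (adjusted p = 1.77e-09). Reads of such similar genes can be split between them by the quantification, and its part in these values was not tested. By RT-qPCR the study found very high Tpsab1 in BALB/c BMMCs, and higher Tpsb2 in those of the other strain. For that other strain the study also cites earlier reported mutations in a tryptase by which its expression is lost. Hdc, which makes histamine, was low in both strains, at 2.35 ± 0.543 and 5.34 ± 0.814 CPM (log2 fold change 1.19, adjusted p = 0.000735), and its log2 fold change was 0.69 in limma on log2(TPM + 1). The granule protease gene Cpa3 was at 11394 ± 543 and 11238 ± 273 CPM, with a log2 fold change of -0.02.

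Of 18 myeloid genes known as targets of Cebpa or Spi1, 6 were compared, with a median log2 fold change of -0.03 over the 6. Beside a share of 13.3% over all genes, 1 of the 6 passed the test, lower in C57BL/6. It was Ctsg, the granule protease cathepsin G, at 359.8 ± 55.1 CPM in BALB/c, against 147 ± 27.8 CPM in C57BL/6 (log2 fold change -1.29, adjusted p = 6.44e-05 in edgeR). The other 12 had at most 13 reads in a library in either strain, among them the granulocyte receptor gene Csf3r, the primary granule genes Elane, Mpo and Prtn3, and Lyz2. Csf2rb2, the beta chain gene of the mouse IL-3 receptor, and Csf2rb, that of the chain shared by the receptors of IL-3, IL-5 and GM-CSF, were the most abundant, and their log2 fold changes of 0.63 and 0.17 stayed under 2-fold.

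**Figure D5:**
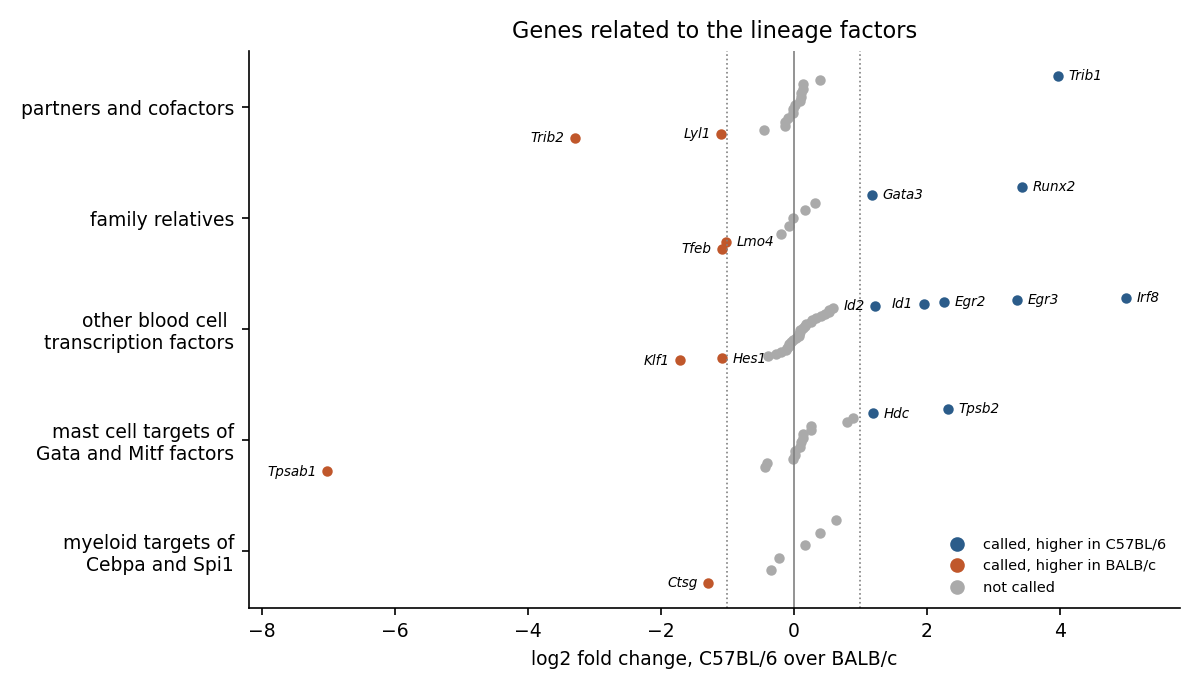
Fitted log2 fold change of the compared genes in the lists of related genes, without 1 mast cell target, C57BL/6 over BALB/c, with genes past the test in colour and named, other genes in grey, and dotted lines at a 2-fold change. The genes past the test range from -7.02 (Tpsab1) to 4.99 (Irf8), and most other genes lie close to 0.

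Some basophil and macrophage markers were higher in C57BL/6, as Cebpa was, and others were not, and their part in its difference was not tested. Of 7 basophil markers, all compared, 3 passed the test with its 2-fold threshold, all higher in C57BL/6. Of all genes compared, 13.3% passed. Prss34 and Ccl9 entered the comparison only through the C57BL/6 libraries. Their direction was thus fixed by the filter, and nothing is read from their p-values. The protease gene Mcpt8 rose from 84.0 ± 3.74 to 183 ± 2.90 CPM (adjusted p = 8.22e-08 in edgeR), a log2 fold change of 1.12 that was 0.98 and under the threshold with plain library size. Prss34 had 1, 8 and 2 reads in S9 to S11, against 213, 192 and 224 in S12 to S14. Its log2 fold change of 5.86 (adjusted p = 1.46e-06 in edgeR) was 7.15 without S10. The study names Prss34 and Mcpt8 as mast cell proteases, and by RT-qPCR it found Prss34 higher in C57BL/6 BMMCs. The chemokine gene Ccl9 had 5, 5 and 13 reads against 338, 310 and 368 (adjusted p = 6.42e-08 in edgeR). The basophil surface receptor gene Cd200r3 was at 310.3 ± 4.67 and 297 ± 6.53 CPM (log2 fold change -0.07). Il18r1, a chain of the IL-18 receptor, stood higher in BALB/c by less than 2-fold, at 13.8 ± 2.04 CPM against 9.47 ± 0.759 CPM (log2 fold change -0.54, adjusted p = 0.00415 in edgeR), and Ms4a3 stood higher in C57BL/6 just under 2-fold, at 2.15 ± 0.263 CPM against 1.08 ± 0.157 CPM (log2 fold change 0.99, adjusted p = 0.0024 in edgeR). Both are named here after their values were seen. By the adjusted p alone, 4 of the 7 were higher in C57BL/6 and 1 lower. The summed level of the 7 markers was between 405 and 418 CPM in BALB/c and between 503 and 514 CPM in C57BL/6. Its rise lay mostly in Mcpt8, at 84.0 and 183 CPM, while Cd200r3, its largest part, did not rise. Of 8 macrophage markers, 2 were compared, Adgre1 and Cd68, and both were higher in C57BL/6, where 13.3% of all genes passed the test. Adgre1 had 16, 0 and 16 reads in BALB/c, against 304, 268 and 365 in C57BL/6 (adjusted p = 7.58e-06 in edgeR). It entered the comparison only through the C57BL/6 libraries, so its direction was fixed by the filter and nothing is read from its p-value. Cd68 had 36, 21 and 34 reads against 134, 91 and 126 (adjusted p = 3.54e-05 in edgeR). The other 6 had at most 2 reads in a library, and C1qa, C1qb, C1qc and Csf1r had 0 in all. The summed macrophage level was between 0.705 and 1.63 CPM in BALB/c and between 13.3 and 13.9 CPM in C57BL/6.

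Erythroid markers stand beside Gata1, Klf1 and Zfpm1, and their part in those values was not tested. Of 9 erythroid markers 2 were compared. The erythropoietin receptor gene Epor had 236, 290 and 316 reads in S9 to S11, against 118, 98 and 108 in S12 to S14 (log2 fold change -1.30, adjusted p = 4.30e-05 in edgeR). The globin gene Hbb-bt had 0 reads in each BALB/c library and 186, 160 and 214 in C57BL/6. It entered the comparison only through the C57BL/6 libraries, so its direction was fixed by the filter. Whether the BALB/c sequence of this gene matches the reference was not tested. Ahsp was not matched, and the other 6 had at most 10 reads in a library, with Slc4a1 at 0 in all. The summed level was between 7.95 and 10.1 CPM in BALB/c and between 9.24 and 9.76 CPM in C57BL/6. It was mostly Epor in BALB/c (8.52 CPM on average) and mostly Hbb-bt in C57BL/6 (5.93 CPM).

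Reads of 9 of the 10 members could meet an annotated gene on the opposite strand, all but Spi1. Of these, Gm33786 at Tal1 had between 28 and 40 reads, and 4931422A03Rik at Lmo2 had 0. The other 7, among them Gm45091 at Cebpa and the protein-coding Peds1 at Cebpb, were not matched in the tables, and their reads are not known. The library kit keeps the strand, but whether the quantification used it was not given in the sources used here. Words of 31 bases shared with transcripts of other genes made up 0.29% of the Mitf transcripts, 0.16% of the Runx1 transcripts and 0.41% of the Cebpb transcript, and none of the other 7 genes.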

How the data were processed

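RNA of BMMCs from BALB/c (n = 3) and C57BL/6 (n = 3) mice was compared at day 20. Per the submitters' processing notes and the labels, the authors made strand-specific mRNA libraries, inspected the reads with FastQC 0.11.5 and quantified transcripts with Salmon 0.8.2. The deposited values are an estimated count and a TPM value for each of 129698 RefSeq transcripts per library as Salmon gives them, before the differential analysis that the authors ran with tximport and DESeq2. The study's methods name an Ensembl reference of GRCm39, whereas the deposited transcripts carry RefSeq accessions, which were used as they stand. Length columns of the deposited tables served to name transcripts.

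Transcripts were paired with genes, ignoring the accession's version, by the RefSeq gene table of GRCm38.p6, which matched 106440 of them. Unmatched transcripts held between 2.69% and 3.12% of the reads and were left out. Coordinates of genes are from the GENCODE annotation of GRCm39. The estimates of all transcripts of a gene were added up and rounded, and genes were compared with edgeR 4.0.16 (R 4.3.3) by the quasi-likelihood test, with TMM normalization, a minimum count of 10 and Benjamini-Hochberg adjustment over 12461 genes. A gene passed the test at an adjusted p under 0.05 and a fold above 2. The script was tested on simulated data. Replicate libraries differed by more than counting noise, so each was counted. The number of libraries limits the precision, and for Cebpa also the reads.

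Named are all members, their transcripts with at least 10% of the gene's reads in a library, and of each related list the genes past the test, at most 6 by size of change with a mean of at least 10 counts, or the most abundant where fewer than 2 passed, and at most 3 of each marker list. Further genes of the lists are named as background or as a count's members. Some genes of the lists are counted but not reported here by name. The members and lists were chosen with earlier results of these data known. Alternatives were DESeq2 1.42.0 size factors and test, offsets for transcript length, plain library size, other filters, limma 3.58.1 on log2 TPM with pseudocounts of 1 and 0.1, unmatched transcripts kept, and each library left out.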

Additional observations from a re-analysis of the deposited data

How the results depend on the processing

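The number of genes past the test was 1653, and it was 1017 with 10 counts required in every library, 798 in limma on log2(TPM + 1), and between 1663 and 1777 with each library left out in turn. Of these, 963 were higher in C57BL/6 and 690 lower, against 838 and 829 with plain library size and 736 and 734 in limma on log2(TPM + 0.1). The count of members was 1 (Cebpa), and it was 0 with 10 counts required in every library, which removes Cebpa. The log2 fold change of Cebpa lay between 2.48, on log2(TPM + 1), and 6.96. The sign turned for Gata2, to -0.07 with plain library size and -0.10 in limma with either pseudocount, and for Tal1, to -0.12 with plain library size and -0.15 in limma with either pseudocount. The median of all genes was at -0.15 with plain library size, and at -0.15 and -0.18 in limma, beside -0.01. Of the family relatives 4 passed, 1 in limma on log2(TPM + 1), and between 2 and 4 with a library left out, the lowest without S10. With a library left out, 3 partners and cofactors, between 7 and 8 other blood cell factors, 4 mast cell targets and 1 myeloid target passed. With 10 counts required in every library, Trib1, Irf8, Prss34, Ccl9, Adgre1 and Hbb-bt were not compared, which left 2 partners and cofactors and 6 other blood cell factors. Each of these genes entered the main comparison only through the C57BL/6 libraries, so its direction was fixed by the filter. Some calls were lost as the log2 fold change moved under 1 in size. In limma on log2(TPM + 1) and log2(TPM + 0.1) it was 0.57 and 0.93 for Gata3, 0.69 and 0.97 for Hdc, and 0.93 and 0.94 for Mcpt8, which was at 0.98 with plain library size. In limma on log2(TPM + 1) it was 0.93 for Runx2, -0.65 for Tfeb, -0.91 for Klf1 and 0.96 for Vwf. Of 44 transcript shares compared by TPM in place of reads, 38 moved by less than their spread between replicates, and the largest move was 5.5 percentage points. No paired analysis was possible because the labels give no replicate numbers, and the numbers used here follow the order of the libraries and tie them to no mouse or batch.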

Other observations

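Genes of blood progenitors and megakaryocytes also differed between the cultures. Of 6 progenitor markers 5 were compared and 2 passed the test, both higher in C57BL/6, where 13.3% of all genes passed. Ly6a, which encodes the stem cell antigen Sca-1, was at 402 ± 36.1 CPM in BALB/c, against 2103 ± 31.3 CPM in C57BL/6 (SD, n = 3, adjusted p = 7.51e-09 in edgeR). Mecom, a factor of blood stem cells, had 60, 32 and 46 reads in BALB/c and 297, 161 and 349 in C57BL/6 (log2 fold change 2.59, adjusted p = 2.75e-05 in edgeR). Cd34, the surface antigen of progenitors and of mast cells, was at 773 ± 8.94 and 738 ± 14.1 CPM, with a log2 fold change of -0.07. Of 7 megakaryocyte markers 3 were compared, and Vwf, the gene of von Willebrand factor, was at 100.3 ± 16.1 CPM in BALB/c, against 226 ± 5.01 CPM in C57BL/6 (log2 fold change 1.17, adjusted p = 8.94e-06 in edgeR). The platelet receptor genes Itga2b and Gp1ba were the other two compared, and stayed under 2-fold in opposite directions, with log2 fold changes of 0.58 and -0.33 (adjusted p = 2.88e-06 and 0.000846 in edgeR). The defining platelet genes Ppbp and Gp9 had 0 reads in all 6 libraries.

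Zfpm1 reads moved between its transcripts of 3159 and 3101 bases in single libraries. The transcript of 3159 bases took between 51.7% and 73.9% of the reads in the 5 libraries other than S14 and 0% in S14, where the transcript of 3101 bases took 71.2%. That transcript also took 21.7% in S10 and 0% in the other 4 libraries.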
